A study of Mus musculus with 57 samples.

Results

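Binding of GATA6, NANOG, SOX2, GATA4 and SOX17 was followed around 38 mouse genes that encode chromatin remodellers and chromatin-modifying enzymes, out of 21938 protein-coding genes. The members were 5 genes of DNA methylation, 3 of DNA demethylation, 7 CHD remodellers, 6 SWI/SNF subunits, 7 histone acetylases and deacetylases, 5 Polycomb genes and 5 enzymes of histone lysine methylation. A peak was counted for a gene when its summit, the position of highest signal, lay within 50 kb of the transcription start site (TSS) of the gene in GENCODE vM21 (build GRCm38, also called mm10). All 38 were found in this annotation. The windows of Chd3 and Kdm6b overlapped, because their TSSs lie 44269 bp apart, so some peaks were counted for both.

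The method was CUT&RUN, in which an antibody directs a nuclease to a chromatin-bound protein and the released fragments are sequenced. The cells were the KH2 mouse embryonic stem (ES) cell line (strain C57BL/6) with the transgene TRE:GATA6-DSREd2, a single copy from which doxycycline switches on tagged GATA6. The question was how GATA6 takes ES cells, which resemble the epiblast, towards primitive endoderm, the other lineage of the inner cell mass, and what becomes of the pluripotency factors NANOG and SOX2. Of 57 samples, 30 with a peak list were used, in 15 groups of 2 replicates. GATA6 had 5 time points (0, 2, 4, 8 and 48 h), NANOG and SOX2 shared the first 4 of these, and GATA4 and SOX17 were mapped once, at 24 h.

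All groups carried the transgene. The 0 h cells stayed in 2i medium without doxycycline. The later cells were moved to serum medium with doxycycline, and for 24 and 48 h the doxycycline was withdrawn after 12 h. The change of medium and the induction of GATA6 therefore cannot be told apart in any comparison with 0 h. Likewise, time since induction and the withdrawal of doxycycline cannot be told apart where 48 h is compared with 2 h. All lists came from 1 cell line. The study states that replicate experiments were done independently, but nothing in the labels says that the replicates were separate cultures. The p-values therefore measure the spread between these lists, which may be technical.

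Histone-modifying enzymes and remodellers set how open chromatin is. DNA methyltransferases and Polycomb complexes are linked to silent chromatin, whereas acetylases, TET enzymes and SWI/SNF remodellers are linked to active chromatin. Many of these genes are strongly expressed in ES cells, and several change in level when ES cells leave pluripotency. GATA6 and GATA4 bind DNA words with the core GATA, SOX2 and SOX17 bind words close to CATTGT, and SOX2 works with OCT factors that bind ATGCAAAT.

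The lists held between 86 and 79358 peaks. As a measure of depth, the background coverage in fragments per base was worked back from the fold and p-value of each peak. The GATA6 lists from 2 to 48 h lay at 0.928 to 1.34, the NANOG lists at 0.865 to 1.31 and the SOX2 lists at 0.29 to 0.692. The GATA6 0 h lists held 86 and 882 peaks and were the shallowest of that protein, at 0.287 and 0.363. For the GATA4 lists it came to 0.677 and 0.87. These values are weakly supported, since only 2 and 4 of the 30 pairs of fold and p-value tried shared them. The SOX17 lists lay at 1.23 and 1.55. The NANOG 8 h lists had the fewest NANOG peaks, 5510 and 2255, at a background of 1.11 and 1.3. Within NANOG 2 h, replicate 1 held 52285 peaks and replicate 2 held 26742. The 6 GATA6 lists attached to the 4, 8 and 48 h samples carry peak names of other samples. Times are given by the peak names. By the sample record, the values given for 48 h belong to 4 h, those for 4 h to 8 h and those for 8 h to 48 h.

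Sequences are shown for sites that stand for the binding patterns described below: the strongest GATA6 2 h region near Chd9 and near Kat2b, which the study names, the strongest region with a GATA6 48 h, GATA4 and SOX17 peak (near Kdm6b, also the second strongest with a NANOG peak at 2 h and none at 0 h), the 2 strongest with NANOG and SOX2 already at 0 h (near Eed and Kdm5b) and the strongest with NANOG at 2 h and not at 0 h (near Tet2). Each run is 199 bases of the plus strand of GRCm38 around the GATA6 2 h summit. Capitals mark a GATA word on either strand, which is AGATAA or TGATAA or either of these with G as its last letter, or the SOX word CATTGT.
Chd9 site, chr8:90822575-90822773: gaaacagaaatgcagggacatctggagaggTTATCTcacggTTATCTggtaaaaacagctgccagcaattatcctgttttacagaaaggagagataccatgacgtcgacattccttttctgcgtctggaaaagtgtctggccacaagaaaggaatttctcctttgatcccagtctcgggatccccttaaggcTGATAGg
Kat2b site, chr17:53557559-53557757: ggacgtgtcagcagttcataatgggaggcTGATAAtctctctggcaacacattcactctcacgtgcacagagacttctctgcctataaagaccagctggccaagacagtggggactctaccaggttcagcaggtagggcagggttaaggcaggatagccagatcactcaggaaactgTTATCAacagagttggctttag
Kdm6b site, chr11:69437311-69437509: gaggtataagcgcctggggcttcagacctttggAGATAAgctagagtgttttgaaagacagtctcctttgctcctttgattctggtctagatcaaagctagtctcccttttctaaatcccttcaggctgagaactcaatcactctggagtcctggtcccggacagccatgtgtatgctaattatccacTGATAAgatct
Eed site, chr7:90024992-90025190: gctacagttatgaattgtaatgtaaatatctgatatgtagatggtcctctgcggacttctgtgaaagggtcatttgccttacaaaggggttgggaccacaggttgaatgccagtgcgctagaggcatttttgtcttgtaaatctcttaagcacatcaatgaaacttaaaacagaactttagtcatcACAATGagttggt
Kdm5b site, chr1:134535374-134535572: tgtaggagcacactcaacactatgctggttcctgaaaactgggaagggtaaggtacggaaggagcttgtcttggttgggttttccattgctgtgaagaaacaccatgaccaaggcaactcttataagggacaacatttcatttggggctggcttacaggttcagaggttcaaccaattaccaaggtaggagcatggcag
Tet2 site, chr3:133564118-133564316: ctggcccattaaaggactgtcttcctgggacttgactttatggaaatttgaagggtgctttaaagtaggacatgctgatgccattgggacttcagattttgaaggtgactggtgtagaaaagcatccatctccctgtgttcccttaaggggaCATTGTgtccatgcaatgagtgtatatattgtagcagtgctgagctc
The Chd9 window held 3 GATA words, and the Kat2b and Kdm6b windows held 2 each. The Eed and Tet2 windows held no GATA word and 1 SOX word each, and the Kdm5b window held neither. In the reference, 59.7% of the Kdm5b window and 32.3% of the Eed window is masked as repeat, and the others shown hold no masked base. A second site with GATA6 48 h, GATA4 and SOX17, 21478 bp upstream of Chd8, lies in an exon of Rab2b 112 bp from the TSS of Tox4, and its sequence is not printed.

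GATA6 peaks around the members were nearly absent at 0 h, most numerous at 2 h and fewer at each later time. Summed over the 38 genes, the lists gave 1 and 4 peaks at 0 h, 402 and 311 at 2 h, 245 and 272 at 4 h, 145 and 150 at 8 h, and 18 and 27 at 48 h. The groups did not overlap. Whole GATA6 lists ran in the same order without overlap, from 79358 and 62683 peaks at 2 h to 5933 and 9767 at 48 h. The median member had 9 and 7 GATA6 peaks at 2 h, where the median of all protein-coding genes was 4 and 3. NANOG gave 58 and 81 peaks at 0 h, 233 and 121 at 2 h, 54 and 69 at 4 h, and 22 and 7 at 8 h, so both 2 h lists stood above every other NANOG list. SOX2 gave 173 and 156 at 0 h, 103 and 213 at 2 h, 196 and 112 at 4 h, and 64 and 57 at 8 h. Here only the 8 h lists stood apart, and the other 3 times overlapped. The same held for whole lists: both NANOG 2 h lists were the longest of NANOG, and both SOX2 8 h lists the shortest of SOX2. GATA4 at 24 h gave 51 and 24, and SOX17 at 24 h gave 167 and 223.

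**Figure D1:**
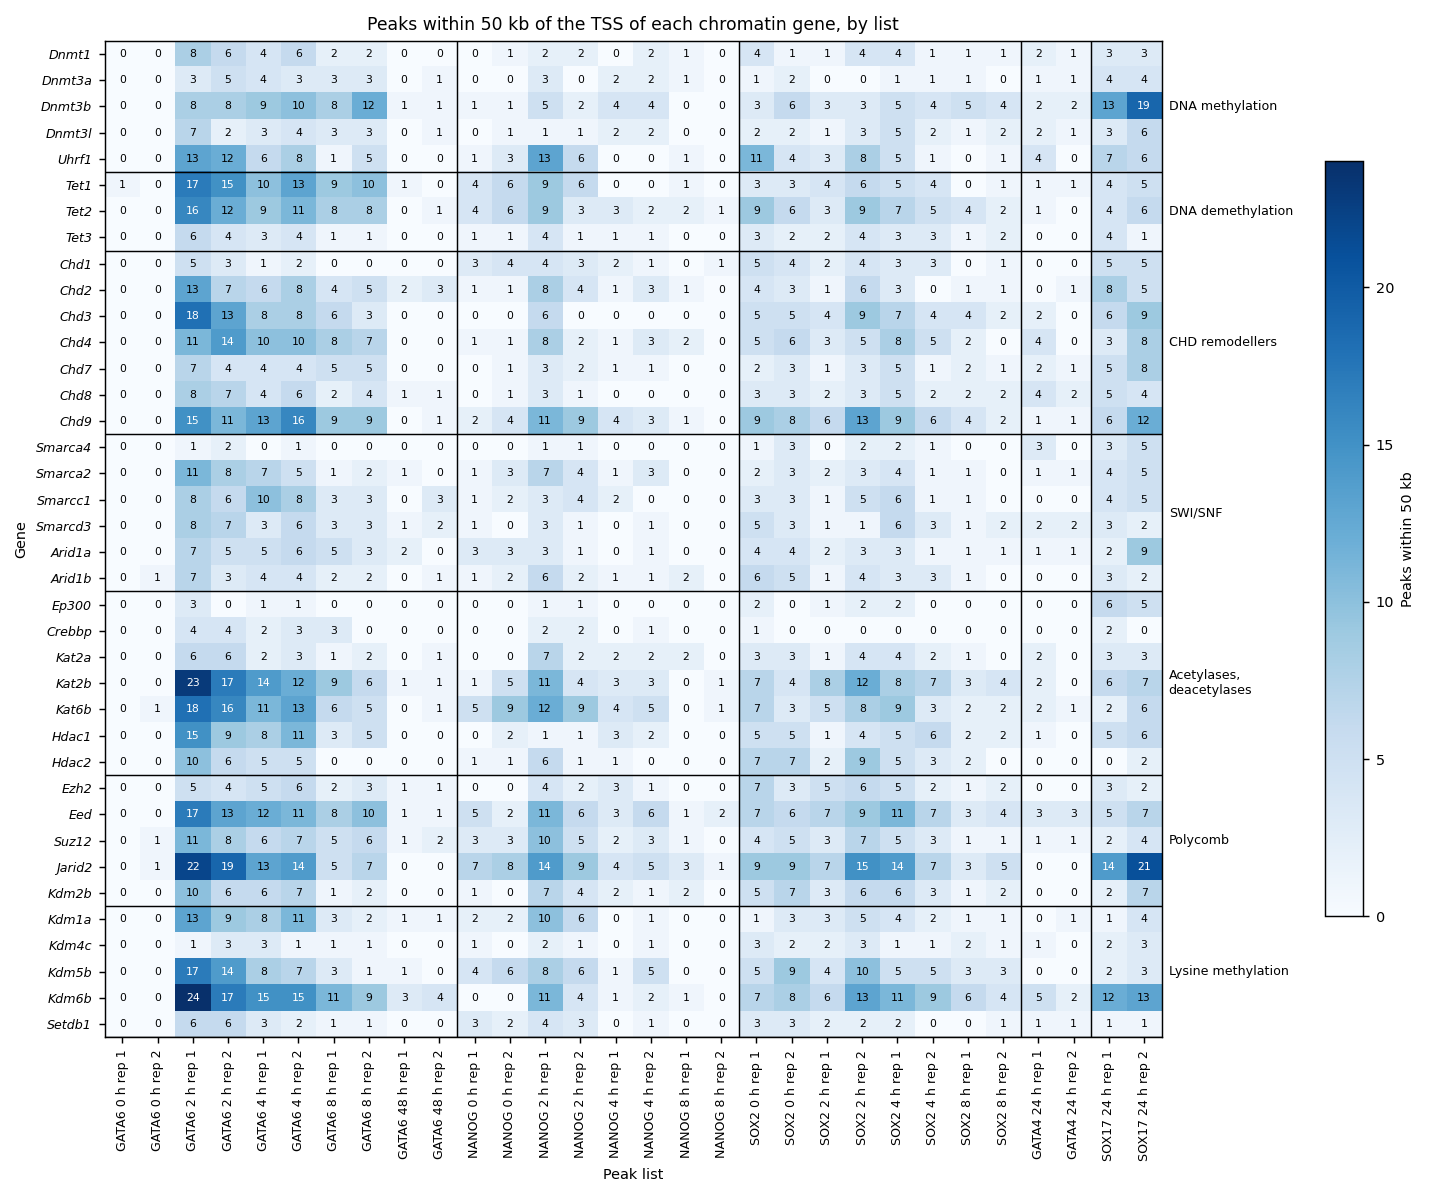
Number of peaks within 50 kb of the TSS for each of the 38 genes (rows, grouped by role) in each of the 30 lists (columns); the number is printed in each cell and shaded. The darkest cells are GATA6 at 2 h near Kdm6b, Kat2b and Jarid2 (24, 23 and 22 peaks in replicate 1), and the SOX17 lists near Dnmt3b and Jarid2 stand out among the SOX17 columns.

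In proportion to all genes, members had an excess of peaks in every list, and its size varied with protein and time. The mean number of peaks per member, divided by the mean over all genes of the same list, lay between 2.06 and 2.19 for GATA6 from 2 to 8 h (6 lists) and at 48 h came to 1.33 and 1.17. For NANOG it was 2.73 and 2.46 at 0 h and 1.93 and 1.99 at 2 h, and at 8 h 1.79 and 1.29. SOX2 lists ranged from 1.69 to 2.25, highest at 0 h. The ratio was 2.04 and 2.14 for GATA4 and 2.14 and 1.92 for SOX17. For 50 other chromatin regulator genes the ratios were 1.41 and 1.37 for GATA6 at 2 h, and 1.58 and 1.66 for NANOG at 0 h, lower than for the members in the same lists. They were lower in the other lists too, but the gap was narrow in some. Examples are GATA6 at 48 h (1.29 and 1.05), replicate 1 of NANOG 4 h (1.63, members 1.68) and replicate 2 of NANOG 8 h (1.26, members 1.29). The GATA6 0 h lists are left aside here: with 1 and 4 peaks near members their ratios were 6.71 and 2.36. The differences in ratio were not tested.

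**Figure D2:**
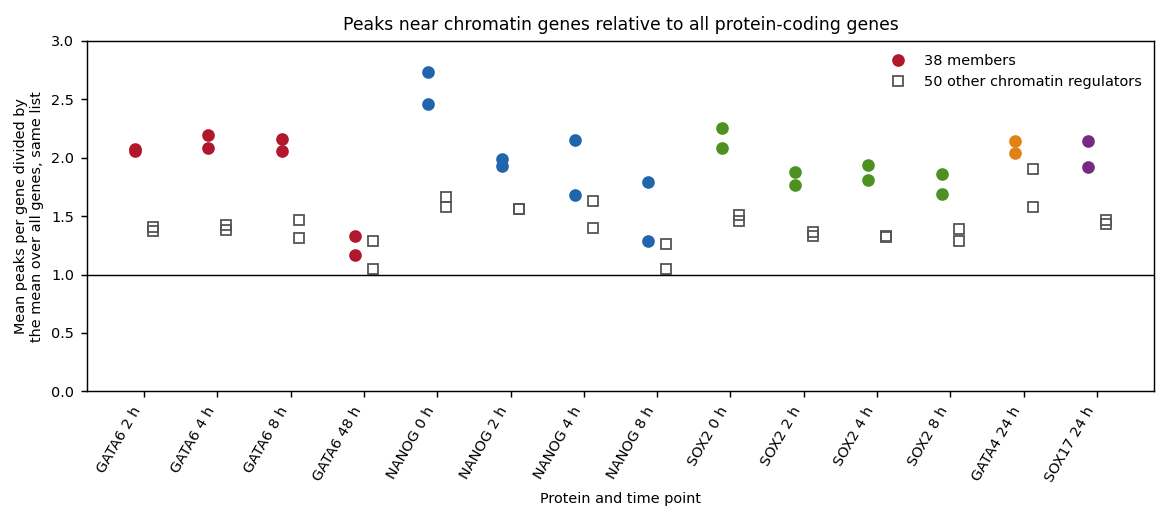
Mean peaks per gene for the 38 members (filled circles, coloured by protein) and for 50 other chromatin regulators (open squares), divided by the mean over all protein-coding genes of the same list; each symbol is 1 list, and the 2 GATA6 0 h lists are not plotted. Members lie near 2 for GATA6 at 2, 4 and 8 h, at 1.33 and 1.17 for GATA6 at 48 h, and, of the lists plotted, highest for NANOG at 0 h (2.73 and 2.46).

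A region was called reproducible when peaks of both lists of a group overlapped by at least 1 bp. In order of time from 2 to 48 h, a reproducible GATA6 region lay within 50 kb of 37 of 38 members (74.7% of all genes), of 36 (67.6%), of 33 (55.2%) and of 10 (18.5%). Ep300 was the member without one at 2 h. From 0 to 8 h, NANOG had one near 20 members (25.9% of all genes), 30 (52.2%), 21 (26.0%) and 3 (2.73%), and SOX2 near 35 (56.1%), 33 (53.8%), 34 (56.0%) and 19 (32.1%). GATA4 regions lay near 14 members (17.9% of all genes) and SOX17 regions near 35 (55.6%). The 3 members with a NANOG region at 8 h were Tet2, Eed and Jarid2. At promoters, within 1 kb of the TSS, GATA6 had a region at 2 h in 13 members (20.9% of all genes) and SOX17 in 9 (16.7%). The 50 other chromatin regulators also stood above all genes. Within 50 kb, 94% of them had a GATA6 region at 2 h (members 97.4%) and 28% at 48 h (members 26.3%). At promoters their share was 28% for GATA6 at 2 h (members 34.2%) and 42% for SOX17 (members 23.7%).

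**Figure D3:**
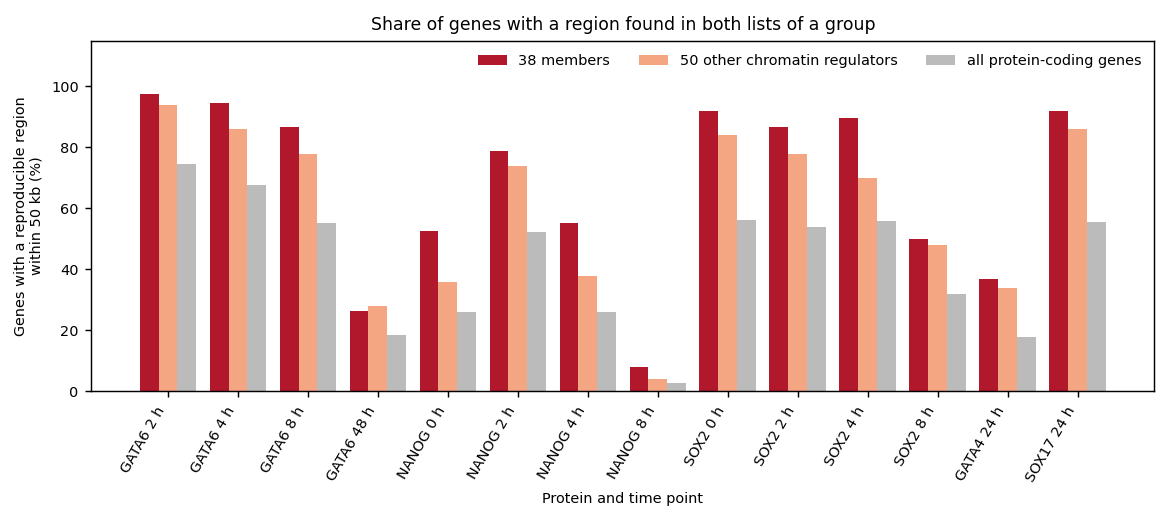
Share of genes (%) with a reproducible region within 50 kb, for the 38 members (dark red), 50 other chromatin regulators (light red) and all protein-coding genes (grey), by protein and time point. GATA6 at 0 h, where no member has a region, is not plotted. Members stand above all genes in every group plotted, for example 97.4% against 74.7% for GATA6 at 2 h and 26.3% against 18.5% at 48 h. The other regulators also stand above all genes, and lie below the members in every group plotted except GATA6 at 48 h (28%).

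Among the DNA methylation genes, Dnmt3b had no fewer GATA6 peaks at 8 h than at 2 h. Dnmt3b and Dnmt3a encode the de novo methyltransferases. Near Dnmt3b GATA6 had 8 and 8 peaks at 2 h, 9 and 10 at 4 h, 8 and 12 at 8 h, and 1 and 1 at 48 h. Its mean at 8 h was 125% of that at 2 h, the highest of the 38 members, for which the summed peaks stood at 41.4% (all genes 40.5%). SOX17 had 13 and 19 peaks there, more than near any member other than Jarid2. SOX2 had 3 and 6 peaks near Dnmt3b before induction and 5 and 4 after 8 h. Dnmt3a, in contrast, had 3 and 5 GATA6 peaks at 2 h and 3 and 3 at 8 h, with 4 in each SOX17 list. Dnmt3l, the cofactor without catalytic activity, had 7 and 2 at 2 h, a wide spread. Uhrf1, which brings the maintenance enzyme Dnmt1 to newly replicated DNA, had 13 and 12 GATA6 peaks at 2 h and 1 and 5 at 8 h. NANOG near Uhrf1 gave 1 and 3 peaks at 0 h and 13 and 6 at 2 h. Dnmt1 itself had 8 and 6 GATA6 peaks at 2 h and none in either 48 h list.

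The TET genes encode the dioxygenases that oxidise methylated cytosine. Tet1 had 17 and 15 GATA6 peaks at 2 h, 10 and 13 at 4 h and 9 and 10 at 8 h. Tet2 had 16 and 12, then 9 and 11, then 8 and 8. Both therefore lay well above Tet3, with 6 and 4 peaks at 2 h and 1 and 1 at 8 h. NANOG was already present near Tet1 and Tet2 at 0 h, with 4 and 6 peaks at each gene. At 4 h no NANOG list had a peak near Tet1, while Tet2 had 3 and 2. The strongest GATA6 region of any member was near Tet2, 19078 bp upstream, and its sequence is given above. Its fold enrichment over background was 71.0 and 57.2 at 2 h, 60.7 and 70.5 at 4 h and 43.8 and 51.5 at 8 h, and neither 48 h list had a peak there. Neither NANOG nor SOX2 was listed at this site at 0 h, and both were listed in both replicates at 2, 4 and 8 h, NANOG with 14.8 and 10.1 at 2 h and SOX2 with 9.41 and 14.9.

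The CHD family comprises ATP-driven remodellers with a chromodomain. Chd3 and Chd4 are alternative motors of the NuRD complex. Chd3 had 18 and 13 GATA6 peaks at 2 h and Chd4 11 and 14, and neither had one at 48 h. The Chd3 window overlaps that of Kdm6b, so its count includes peaks that were also counted for Kdm6b. At 8 h they stood at 6 and 3 and at 8 and 7. Chd9 had 15 and 11 at 2 h, 13 and 16 at 4 h and 9 and 9 at 8 h, so its 2 h and 4 h lists overlapped. NANOG had 2 and 4 peaks near Chd9 at 0 h and 11 and 9 at 2 h, a difference that did not pass the test described below (log2 difference 1.5, SE 0.43, limma adjusted p = 0.0674). GATA6 was also at the Chd9 promoter, 18 bp before the TSS, with folds of 13.7 and 12.8 at 2 h, and NANOG and SOX2 had a peak there in both lists at 0 h. At the stronger site shown above, 5678 bp upstream, GATA6 had folds of 38.4 and 23.9 at 2 h, NANOG was absent at 0 h and had 10.8 and 8.36 at 2 h, and GATA4 had 9.37 and 8.02. Chd1, which recognises a histone mark of active promoters, had 5 and 3 GATA6 peaks at 2 h and none at 8 h. Chd7, Chd8 and Chd2 had 7 and 4, 8 and 7, and 13 and 7 GATA6 peaks at 2 h. At 8 h Chd7 had 5 and 5. Chd2 still had 2 and 3 at 48 h.

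The 6 SWI/SNF genes had the fewest GATA6 peaks per gene of the 7 roles at 2 h, 42 and 31 in sum. Smarca4 and Smarca2 encode the alternative motors BRG1 and BRM. Near Smarca4 GATA6 had 1 and 2 peaks at 2 h, whereas near Smarca2 it had 11 and 8. SOX17 showed 3 and 5 peaks near Smarca4. Smarcc1, a core scaffold subunit, had 8 and 6 at 2 h and 10 and 8 at 4 h. Smarcd3 had 8 and 7 at 2 h and 1 and 2 at 48 h. Arid1a and Arid1b encode subunits that exclude each other from the complex. Arid1a had 7 and 5 GATA6 peaks at 2 h and 5 and 3 at 8 h, and Arid1b had 7 and 3 and then 2 and 2. SOX17 gave 2 and 9 peaks near Arid1a, which is the widest gap between replicates among these subunits for SOX17.

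The acetylases differed widely. Kat2b and Kat2a encode the related acetylases PCAF and GCN5. GATA6 had 23 and 17 peaks near Kat2b at 2 h, 14 and 12 at 4 h, 9 and 6 at 8 h and 1 and 1 at 48 h. Near Kat2a it had 6 and 6 at 2 h. Kat6b, another acetylase gene, had 18 and 16 at 2 h and 6 and 5 at 8 h, with 5 and 9 NANOG peaks already at 0 h. At the other end, Ep300 and Crebbp, which encode the coactivator acetylases p300 and CBP, had 3 and 0 and 4 and 4 GATA6 peaks at 2 h. Ep300 had 6 and 5 SOX17 peaks, in both lists more than any GATA6 list showed there. The deacetylase genes Hdac1 and Hdac2 had 15 and 9 and 10 and 6 GATA6 peaks at 2 h. At 8 h Hdac1 had 3 and 5 and Hdac2 had none in either list. Hdac2 carried 7 and 7 SOX2 peaks at 0 h and 2 and 0 at 8 h.

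At the Kat2b site shown above, 9203 bp upstream of the TSS, GATA6 folds were lower at each later time, with 20.5 and 21.8 at 2 h, 11 and 17.1 at 4 h and 6.98 and 7.27 at 8 h, and no peak at 48 h. NANOG was present before induction with 7.89 and 9.22, and had 17.7 and 9.9 at 2 h. SOX2 had a peak in 1 of 2 lists at 0 h, at 4.44, and 18 and 30.7 at 2 h. A weaker site 34427 bp upstream of Kat2b, in an intron of Pp2d1, did not: GATA6 had 9.17 and 7.1 at 2 h, 18.8 and 25.9 at 8 h and 5.71 and 5.41 at 48 h, and no NANOG or SOX2 list had a peak there.

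Among the Polycomb genes, Jarid2, an accessory subunit that helps to recruit the complex PRC2, had the most GATA6 peaks at 2 h. GATA6 gave 22 and 19 at 2 h, 13 and 14 at 4 h, 5 and 7 at 8 h and none at 48 h. NANOG had 7 and 8 peaks there at 0 h and 14 and 9 at 2 h, and SOX17 had 14 and 21. The PRC2 core is formed by Ezh2, the methyltransferase, with Eed and Suz12. Eed had 17 and 13 GATA6 peaks at 2 h and 8 and 10 at 8 h, Suz12 11 and 8 and then 5 and 6, and Ezh2 5 and 4 and then 2 and 3. Kdm2b, which brings Polycomb complexes to CpG islands, had 10 and 6 and then 1 and 2. Jarid2 was the only member with a reproducible region within 1 kb of its TSS in all 4 NANOG groups and all 4 SOX2 groups. The Eed site shown above, 44108 bp upstream, held all 3 proteins: GATA6 had 59.8 and 36.9 at 2 h, NANOG 7.36 and 11.1 at 0 h and 21.6 and 17.1 at 2 h, and SOX2 19.1 and 15.2 at 0 h.

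Among the enzymes of lysine methylation, Kdm6b had the most GATA6 peaks of all 38 members in replicate 1 at 2 h. Kdm6b encodes a demethylase for lysine 27 of histone H3 and so opposes Polycomb. GATA6 gave 24 and 17 at 2 h, 15 and 15 at 4 h, 11 and 9 at 8 h and 3 and 4 at 48 h, the highest 48 h counts of any member. NANOG had no peak near Kdm6b in either 0 h list and 11 and 4 at 2 h. GATA4 had 5 and 2 and SOX17 12 and 13. Kdm5b, a demethylase for lysine 4 of histone H3, had 17 and 14 GATA6 peaks at 2 h and 3 and 1 at 8 h, and NANOG had 4 and 6 at 0 h. Kdm1a, which encodes LSD1, had 13 and 9 and then 3 and 2. Setdb1 and Kdm4c, which add and remove methyl groups on lysine 9 of histone H3, had 6 and 6 and 1 and 3 GATA6 peaks at 2 h.

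The strongest sites near Kdm6b and Kdm5b differed in what was present before induction. At the Kdm6b site, in an intron of Dnah2 23735 bp upstream, GATA6 had folds of 52.6 and 41.7 at 2 h and still 10.2 and 8.6 at 48 h. NANOG and SOX2 had no peak there at 0 h and had 18 and 9.71 and 11.1 and 21.2 at 2 h, and GATA4 had 7.63 and 16.6. At the Kdm5b site, 24698 bp upstream, NANOG had 20.9 and 29.8 and SOX2 30.0 and 25.2 before induction. GATA6 had 31.3 and 21 there at 2 h, 6.51 and 15.3 at 4 h and no peak at 8 or 48 h.

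**Figure D4:**
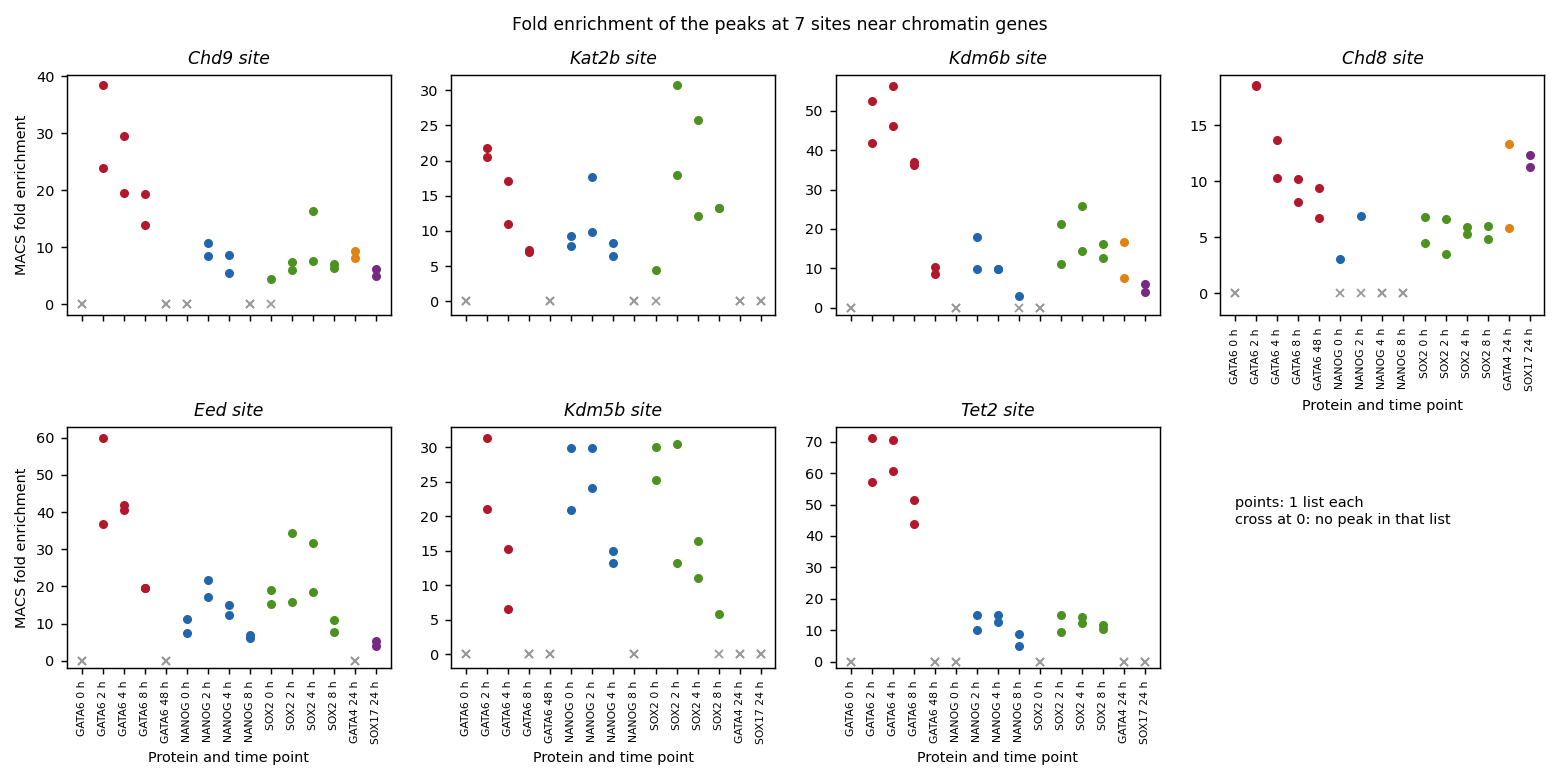
Fold enrichment given by the peak caller (vertical axis, linear, own scale in each panel) at the sites near Chd9, Kat2b, Kdm6b, Chd8, Eed, Kdm5b and Tet2 for each protein and time point; each point is 1 list and a cross at 0 is a list without a peak. At the Tet2 and Kdm6b sites NANOG and SOX2 have crosses at 0 h and points at 2 h, whereas at the Kdm5b site their 0 h folds (20.9 and 29.8, and 30.0 and 25.2) are at or near their highest.

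To ask whether peak numbers changed over time, log2(peaks + 1) was tested with limma over all genes with a mean of at least 0.5 peaks in the lists of the protein. The GATA6 0 h lists were left out of this test and of its filter. A log2 difference here depends on the added 1 where a group is at 0. In the counts that follow, a gene fell or rose only where its adjusted p from limma was under 0.05. GATA6 peaks fell from 2 to 48 h in 37 of 38 members, all but Ep300, and 83.2% of 17240 genes fell. The estimate was below 0 in all 38 members and in 16801 of these genes. The titles of the 48 h samples carry another prefix (JT, marked as merged) than those of 2 to 8 h (DL). Whatever that difference stands for cannot be told apart from time in this comparison. The median log2 difference was −2.56 in the members and −1.95 in all genes. Jarid2 had the steepest decrease (−4.42, SE 0.17, adjusted p = 7.21e-05), followed by Chd3 (−4.03, SE 0.30, adjusted p = 0.000312), whose window overlaps that of Kdm6b. Kdm6b fell less (−2.25, SE 0.21, adjusted p = 0.000602), and Ezh2 less still (−1.45, SE 0.19, adjusted p = 0.00181). For Ep300 the difference was −1 (SE 0.63, adjusted p = 0.191). As a share of the 2 h sum, members stood at 72.5% at 4 h (all genes 70.4%), 41.4% at 8 h (40.5%) and 6.31% at 48 h (10.6%). With times taken from the sample record 23 of 38 members fell, and 7925 of 17240 genes passed, 70 of them higher. With lists cut to at most their 10000 best peaks 14 of 31 members fell, and 2660 of 8517 genes passed. The medians with these cut lists were −0.79 in the members and −0.5 in all genes. The 48 h lists hold only 5933 and 9767 peaks and so stayed whole, which leaves list lengths unequal. In the latter setting 680 of the 2660 genes that passed were higher at 48 h, compared with 43 of 14387 with all peaks.

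NANOG peaks rose from 0 to 2 h in 3 of 36 members tested, against 16.6% of 14475 genes. These were Kdm6b (log2 difference 2.95, SE 0.55, adjusted p = 0.0326), Ezh2 with no peak at 0 h and 4 and 2 at 2 h (1.95, SE 0.41, adjusted p = 0.0402), and Crebbp with none at 0 h and 2 and 2 at 2 h (1.58, SE 0.34, adjusted p = 0.0402). The estimate was above 0 in 34 of 36 members, with a median of 1.01 (1.08 in all genes). The named calls also depended on the peaks counted. In a 25 kb window none of the 3 passed and Kdm1a and Chd2 did, and with −log10 q of at least 5 Kdm6b passed with Chd4 and Dnmt3l, but not Ezh2 or Crebbp. With the 10000 best peaks of each list 442 genes passed, 320 of them higher, and 1 member, Dnmt3l. The calls rested on single lists: without replicate 1 of NANOG 0 h no member and no gene passed, without replicate 1 or without replicate 2 of NANOG 8 h no member passed, without replicate 2 of NANOG 0 h or replicate 1 of NANOG 2 h 1 passed, and without replicate 2 of NANOG 2 h 5 passed. Ep300 and Smarca4 were below the filter. Before adjustment, limma gave p under 0.05 for 11 members and 6189 genes.

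From 2 to 8 h NANOG peaks fell in 23 of 36 members, against 60.5% of all genes tested. Kdm1a went from 10 and 6 peaks to none in either list (−3.13, SE 0.40, adjusted p = 0.00593), Kat6b from 12 and 9 to 0 and 1 (−3.01, SE 0.43, adjusted p = 0.00705) and Chd9 from 11 and 9 to 1 and 0 (−2.95, SE 0.43, adjusted p = 0.00738). Jarid2, with 3 and 1 peaks left, also fell (−2.11, SE 0.39, adjusted p = 0.012). Tet2, with 9 and 3 peaks at 2 h and 2 and 1 at 8 h, did not pass (−1.37, SE 0.51, adjusted p = 0.063). The median was −1.89 in the members and −1.58 in all genes. These calls depended on single lists. Fewer members, and fewer of all genes, passed with replicate 1 of NANOG 2 h or either NANOG 8 h list dropped. With the 2 h list dropped, the median was −1.58 in the members and −1.53 in all genes. Dropping replicate 2 at 8 h gave −1.77 and −1.5, and dropping replicate 1 at 8 h gave −2.02 and −1.79.

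For SOX2 no member of 37 tested (Crebbp was below the filter) and no gene of 17115 (0%) passed between 0 and 8 h. Before adjustment limma gave p under 0.05 for 13 members and 4082 genes. In 27 of 38 members both 8 h lists had fewer peaks than both 0 h lists, against 8088 of 21938 genes (36.9%). Genes that lack a peak in a 0 h list cannot meet this rule, and the difference in share was not tested. The median log2 difference was −1.03 in the members and −0.79 in all genes. Hdac2 went from 7 and 7 to 2 and 0 (−2.21, SE 0.74, adjusted p = 0.169) and Uhrf1 from 11 and 4 to 0 and 1 (−2.45, SE 0.77, adjusted p = 0.162). Dnmt3b was the member whose estimate was not below 0 (0.05, SE 0.35, adjusted p = 0.99). The background coverage of the SOX2 lists was 0.416 and 0.575 at 0 h and 0.29 and 0.436 at 8 h, and its part in this difference was not tested. With the 10000 best peaks of each list Chd3, Kdm6b and Kat2b, of which Chd3 and Kdm6b have overlapping windows, had more SOX2 peaks at 8 h (1.79, 1.56 and 1.16 on the log2 scale, adjusted p = 0.00137, 0.0177 and 0.0122). In this setting 1247 genes passed, 753 of them higher. Other settings that gave calls ran mostly the other way. With −log10 q of at least 5, 509 genes passed, 81 of them higher, and Smarca2 fell (−1.58, adjusted p = 0.028). With the nearest TSS only, 451 genes passed, 74 of them higher. Without replicate 1 or without replicate 2 of SOX2 2 h, 779 and 777 passed, 74 higher in each, and Hdac1 fell (−1, adjusted p = 0.047 and 0.0484).

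**Figure D5:**
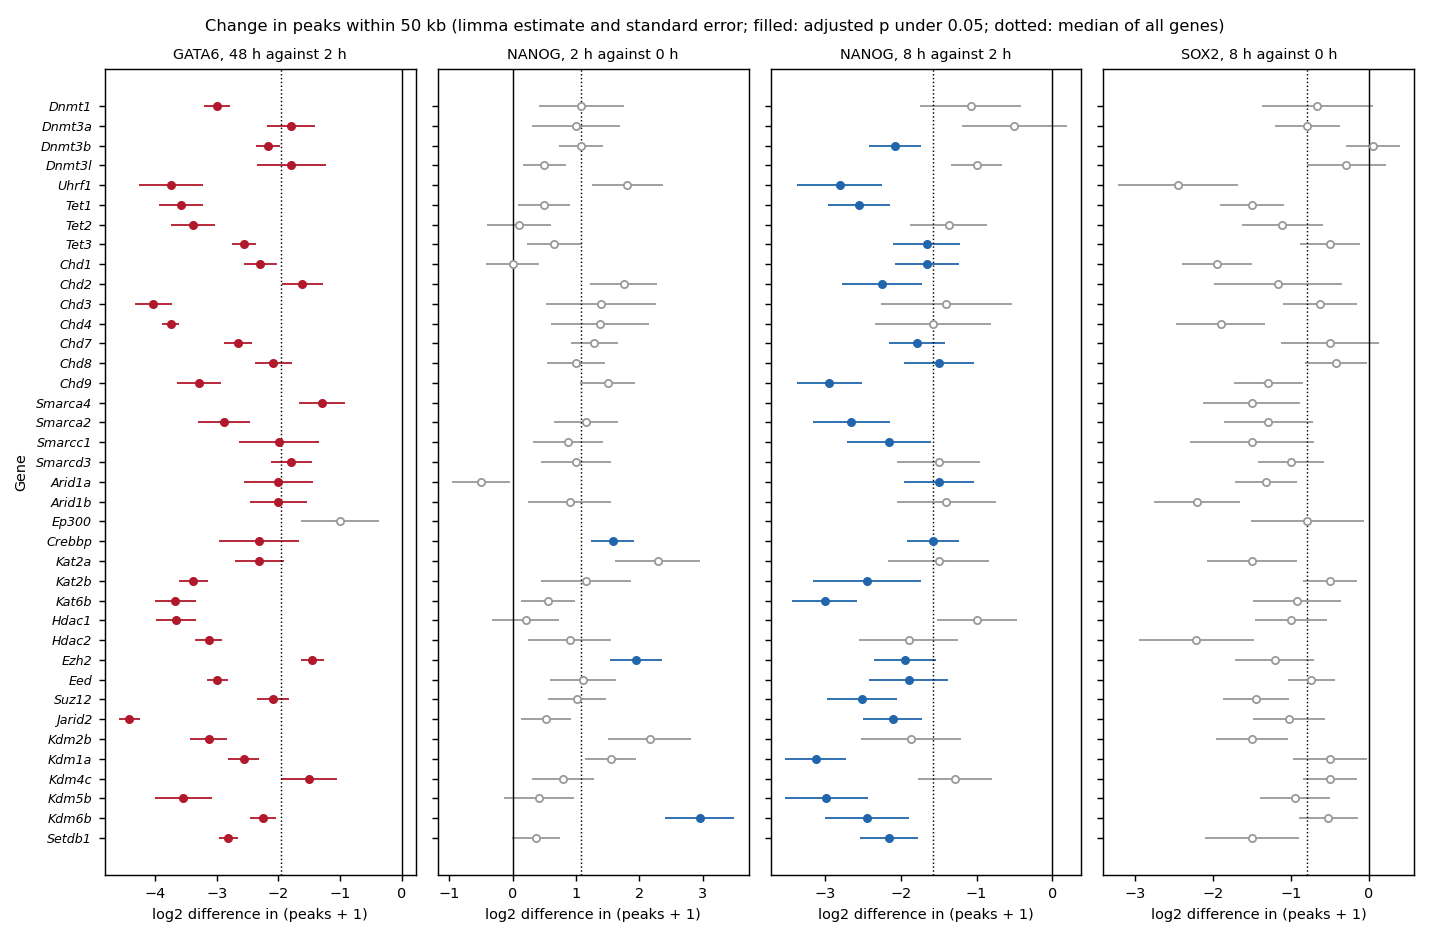
log2 difference in (peaks + 1) for each tested member in the 4 comparisons (points, with the standard error from limma as bars); filled points had an adjusted p under 0.05, and the dotted line is the median of all genes. All GATA6 points lie below 0, with Jarid2 lowest at −4.42, while no SOX2 point is filled.

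For the 50 other chromatin regulator genes, GATA6 peaks fell from 2 to 48 h in 44 of 48 tested, NANOG peaks rose from 0 to 2 h in 11 of 46 and fell from 2 to 8 h in 32 of 46, and no SOX2 count passed among 48. The medians of the log2 difference were −2.40, 1.3, −1.85 and −0.79. For NANOG from 0 to 2 h, where 3 of 36 members passed, the difference between the lists was not tested.

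Of 44774 reproducible GATA6 2 h regions, 227 had their summit within 50 kb of a member. With each region given to its nearest member, they spread over 37 genes with 1 to 14 regions each, most near Kat2b. Counted in full windows, which overlap for Chd3 and Kdm6b, Kdm6b had 15 and Kat2b 14. The summit lay in an intron in 120, between genes in 87 and in an exon in 20, and 13 lay within 1 kb of the member's TSS. The member had the nearest protein-coding TSS for 156 of the 227, and for the rest a neighbour was nearer. The strongest region near Uhrf1 lies 136 bp from the TSS of Ticam1 and that near Dnmt1 lies in an exon of S1pr2. The median fold at 2 h was 7.17 near members and 6.94 over all regions. Taking the strongest region of each gene, the median was 18.7 for 37 members and 10.8 for 16389 genes, with no allowance for the number of regions per gene. GATA6 was still in both lists at 8 h at the strongest region of 30 of 37 members (81.1%, and 57.5% of genes), and at 48 h at that of 1 (2.7%, and 11.1%). These shares, too, make no allowance for the number of regions per gene. Counted per region, GATA6 was in both 4 h lists at 63.9% near members and 63.8% of all. In both 8 h lists it was at 38.3% and 38%, so persistence per region hardly differed.

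Given by role, with each region assigned to the nearest member, the strongest GATA6 2 h region differed both in height and in what else was there. Among DNA methylation genes, the region 6521 bp after the Dnmt3l TSS had GATA6 folds of 26.2 and 17.2 at 2 h, and SOX2 had 17.8 and 16.8 there at 0 h. The region near Dnmt1 had 36.8 and 23.7 at 2 h, and GATA4 had 11.7 and 8.38. Near Dnmt3b the strongest region, 37643 bp upstream, had 16.8 and 14.9 and held all 5 proteins, with SOX17 at 20.2 and 26.3. Near Dnmt3a GATA6 had only 9.41 and 8.85 at 2 h and 9.88 and 11.3 at 8 h, and SOX17 had 15.1 and 24.4, in a window with 6 GATA words that is 81.1% repeat-masked. Of the TET genes, Tet1 (26.6 and 9.57) and Tet3 (24.2 and 18.4) had their strongest region in an intron of their own, where NANOG and SOX2 were present in both lists at 0 h, unlike at Tet2.

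Among the remodellers, Chd2 had 27.5 and 15.4 at its strongest region and Chd8 24.1 and 23.8, both with SOX17 in both lists. Chd1 had 16.2 and 14.2 at 2 h and no GATA6 peak there at 8 h, and NANOG had 12.6 and 12 there at 0 h and 21.6 and 13.9 at 2 h. Chd7 had 10.9 and 10.2 and Chd3 6.97 and 8.22, the latter 1622 bp from the TSS with no other protein in any list at 0 or 2 h. Of the SWI/SNF genes, Smarcc1 (27.4 and 27.9) and Smarca2 (23.9 and 23.3) were highest, each in an intron of its own without NANOG or SOX2 at 0 h. Smarcd3 had 22.2 and 13.7, Arid1b 20.1 and 18.9 and Arid1a 14.4 and 9.38. Smarca4 had 4.06 and 5.13 at its promoter, the lowest of the 37 members.

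Kat6b, with 46.1 and 39.9 in its own intron, followed Tet2, Eed and Kdm6b in height and, like Tet2 and Kdm6b, had neither NANOG nor SOX2 there at 0 h and both at 2 h (NANOG 14.9 and 11.1). Kat2a had 16.4 and 7.16, 112 bp from the TSS of Rab5c. Crebbp had 8.98 and 6.63 at 990 bp from its TSS, with no peak of any other group. Hdac2 had 17.1 and 12.8 at 2 h, at a region where NANOG (17.3 and 11.1) and SOX2 (17 and 17.8) were present at 0 h, and no GATA6 peak remained there at 8 h. Among Polycomb genes, Jarid2 had 31.5 and 15.9 at a region 24713 bp upstream that already held NANOG (18.9 and 23.5) and SOX2 (34.6 and 38.1) at 0 h, Ezh2 26.5 and 12.3, Kdm2b 26 and 19.8, and Suz12 21.4 and 10.5. Kdm4c (13.5 and 20.5) and Kdm1a (16.2 and 10.4) had theirs in an intron of their own, and that of Setdb1 (12 and 9.53) lay in an intron of Cers2. At these strongest regions, where NANOG was in both 0 h lists, GATA6 was in neither 8 h list near Kdm5b, Chd1, Hdac2 and Kdm1a and in both near Eed, Jarid2, Tet1, Tet3, Kat2b, Suz12, Dnmt3b and Arid1a. Where NANOG was in neither 0 h list, GATA6 was in neither 8 h list near Crebbp, Chd3 and Smarca4, and it had its highest 8 h folds near Hdac1, Tet2, Kdm6b, Kat6b and Chd4.

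Most co-binding shares near members were close to those of all GATA6 2 h regions. NANOG at 0 h was present in both lists at 17.2% of the regions near members and 13% of all, SOX2 at 0 h at 32.2% and 25.7%, and both together at 15.0% and 11.1%. NANOG at 2 h was found at 36.1% and 36.7%. A NANOG peak in both lists at 2 h and in none at 0 h was seen at 11.5% near members and 18.5% of all. In the other direction, 39 of 44 NANOG 0 h regions near members (88.6%) held GATA6 at 2 h, compared with 76.8% of all, and 75 of 99 SOX2 0 h regions (75.8%), compared with 66.2%. Neighbouring regions share genes and lists, so no test was made of these shares.

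GATA words occurred within 100 bp of the summit in 47.6% of the regions near members and 54.1% of all GATA6 2 h regions. The SOX word occurred in 16.3% and 14.9%, and the OCT word ATGCAAAT in 3.08% and 2.93%. Where NANOG was present in both 0 h lists the share with a GATA word was 41.0% near members and 41.3% of all, and where it was in neither it was 52.2% and 58.1%. The Eed and Kdm5b sequences above are such NANOG-bound regions without a GATA word, and the Chd9 and Kdm6b sequences hold words and had no NANOG at 0 h, but the Kat2b sequence holds words and had NANOG, and the Tet2 sequence has neither.

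Not every site weakened from 2 h on. The strongest region near Hdac1 lies 32005 bp upstream and 1077 bp from the TSS of Lck. GATA6 had folds of 19.9 and 13.9 there at 2 h, 64.3 and 69.8 at 4 h and 66.8 and 57.3 at 8 h. Its window held 15 GATA words and is masked as repeat over 100% of its length, and the part of this in the folds was not tested. In an intron of Chd4, 19994 bp after the TSS, GATA6 went from 22.2 and 15.2 at 2 h to 44.9 and 51.3 at 4 h. Of the 145 regions near members with GATA6 in both lists at 4 h as well, 17 had both 4 h folds above both 2 h folds (11.7%, and 14.0% of all regions) and 53 had both below (36.6% and 35.5%).

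At 48 h GATA6 was in both lists at 8 of the 227 regions (3.52%, and 5.7% of all). They lay near Kdm6b, Chd8, Eed, Chd2, Kat2b, Dnmt3b, Suz12 and Smarcd3. The 4 of them near Kdm6b, Chd8, Eed and Dnmt3b, also had GATA4 and SOX17 in both lists (1.76%, and 2.82% of all). The Dnmt3b region, in an intron of Commd7 23663 bp upstream, had GATA6 folds of 8.41 and 6.74 at 2 h, 12.1 and 14.3 at 8 h and 9.27 and 7.76 at 48 h, and SOX17 had 12.2 and 19.0. In an intron of Smarcd3, GATA6 folds were 3.91 and 4.13 at 2 h, 8.39 and 10.7 at 8 h and 6.6 and 9.36 at 48 h, and GATA4 had 7.61 and 8.79. At both sites the 48 h folds were not all below the 2 h folds, unlike the number of peaks near these genes.

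GATA4 and SOX17 are factors of the endoderm that act downstream of GATA6. GATA4 was in both lists at 7.05% of the GATA6 2 h regions near members (5.55% of all) and SOX17 at 28.2% (25.1%). SOX17 peaks were most numerous near Jarid2 (14 and 21), Dnmt3b (13 and 19) and Kdm6b (12 and 13), which lay above all other members in both lists. By the mean of both lists, GATA4 counts were highest near Kdm6b (5 and 2), followed by Chd8 (4 and 2) and Eed (3 and 3), and the values of these genes overlap. With 1 time point for each of these proteins, no change over time could be tested.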

How the data were processed

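CUT&RUN peaks of GATA6, NANOG, SOX2, GATA4 and SOX17 were read from 30 deposited narrow peak lists, 2 for each of 15 groups. According to the methods, reads were aligned by the authors to mm10 with Bowtie2. They removed blacklisted regions, kept duplicates, used fragments under 120 bp and called peaks per list with MACS against an antibody control. As deposited, the lists give the fold enrichment over background (a ratio) and the −log10 p and −log10 q of each peak, as MACS wrote them. The deposited score column is 10 times the −log10 q in whole numbers and was not used. The largest q in any list was 0.0499. Of 57 samples, 27 were not analysed here, and 63 mitochondrial peaks were dropped. In 6 GATA6 lists the peak names belong to other samples than the record the list is attached to. The main assignment follows the peak names, and the record was an alternative.

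Peaks were counted per gene when the summit lay within 50 kb of the TSS (GENCODE vM21, GRCm38, 21938 protein-coding genes). log2(count + 1) was fitted over all groups of a protein, except GATA6 0 h, with limma 3.58.1 in R 4.3.3 (lmFit, then eBayes with trend). Genes had a mean of at least 0.5 peaks in these lists, with Benjamini-Hochberg adjustment over all genes tested and a threshold of 0.05. The GATA6 0 h lists held too few peaks to share a spread with the later times. The script was run on simulated independent counts with equal list totals. These do not hold the spread between real replicates, so that run does not vouch for the calls. Because a list is 1 sample of counts of peaks, not of reads, no count model was used. Regions of a group were merged peaks of both lists that held a peak of each, with an overlap of at least 1 bp. Words were searched within 100 bp of the summit on both strands of GRCm38.p6 from RefSeq, and sequences are the reference's. All 38 members are named by role, each with its strongest GATA6 2 h region by mean fold, and 50 other regulators as counts. Sequences were those of the strongest region of Chd9 and Kat2b and of the 2 strongest of each of 3 patterns. The members, lists and tests were chosen with earlier results of these data known. Alternatives were a 25 kb window, −log10 q of at least 5, at most the 10000 best peaks of each list, the nearest TSS only, every coding TSS, a pseudocount of 0.5, no filter, the replicate number as a block, the GEO record's times, and leaving out each list. Depth is unknown from the files except through the background coverage, which limits how weak a peak could be called.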

Additional observations from a re-analysis of the deposited data

How the results depend on the processing

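Counts are of all genes, then of members, that passed limma's adjusted 0.05. With each list cut to at most its 10000 best peaks, GATA6 at 48 h against 2 h gave 2660 and 14, NANOG at 2 h against 0 h 442 and 1, NANOG at 8 h against 2 h 1790 and 9, and SOX2 at 8 h against 0 h 1247 and 3. The GATA6 48 h and NANOG 8 h lists are shorter than this and stayed whole. For the nearest TSS only, the gene counts were 8879, 1279, 4418 and 451 in the same order. With the times of the sample record, GATA6 gave 7925 and 23. A 25 kb window gave 5152 genes for NANOG at 8 h and 242 for SOX2, −log10 q of at least 5 gave 509 genes and 1 member (Smarca2) for SOX2, and no filter gave 5 members for NANOG at 2 h. Leaving out each list in turn gave 0 to 3108 genes and 0 to 5 members for NANOG at 2 h, 2590 to 7509 and 5 to 23 for NANOG at 8 h, and 0 to 779 and 0 to 1 for SOX2. In every one of the alternatives run, the cause of a difference was not tested, beyond the smaller number of lists or peaks that the alternative itself leaves.

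Replicate numbers did not pair the lists: the correlation of deviations between same-numbered lists ranged from −0.08 to 0.04. With the replicate block, NANOG at 2 h gave 807 genes and 1 member (Kdm2b, and not Kdm6b, Ezh2 or Crebbp), and the other comparisons moved by less than 1.5 times.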
